A study of Mus musculus with 8 samples.

Results

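At 16 weeks, 259 thymic epithelial cells (TEC) carried Ccl21a, a basal keratin and Ccl11 but no Aire. They were chosen by measured RNA alone. A cell needed at least 3 unique molecular identifiers (UMIs, counted mRNA molecules) of Epcam, Krt8, Krt18 and Krt5 together, more of these than of the fibroblast genes Col1a1, Col1a2, Col3a1 and Dcn, Ccl21a at 0.2% of its UMIs or more, at least 1 UMI of Krt5 or Krt14, 0 UMIs of Aire, and Ccl11 at 0.05% of its UMIs or more. These Ccl11-high cells numbered 77 in replicate 1 and 182 in replicate 2 and made up 6.15% of the 4208 epithelial cells of 16 weeks, in a series of 9953 cells. The 518 cells that met every condition except the Ccl11 limit (177 and 341) served as the comparison and are called Ccl11-low.

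The series is a CITE-seq experiment, in which mRNA and DNA barcodes on antibodies are counted in the same cell, on thymic stroma of C57BL/6 mice aged 1 week or 16 weeks. The study asked how far surface proteins identify the subtypes of TEC that RNA defines. Thymi of several unmanipulated mice of an age were pooled, CD45+ cells were depleted, EpCAM1+ cells were enriched by sorting, and each pool was loaded on 2 wells. The wells, here replicates 1 and 2, share their animals, so p-values below cover the spread between wells and not between mice.

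TEC build the thymic microenvironment in which T cells mature. Cortical TEC (cTEC) present self-peptides for positive selection through a thymus-specific proteasome and attract progenitors with Ccl25 and Cxcl12, whereas medullary TEC (mTEC) impose tolerance, in part through Aire. Ccl21a binds Ccr7 and draws positively selected thymocytes into the medulla. Ccl11 (eotaxin-1) is a ligand of Ccr3, the receptor of eosinophils, and in barrier epithelia it belongs with the chitinase-like proteins Chil3 and Chil4 to a response to the type 2 cytokines Il4 and Il13.

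The median Ccl11-high cell held 4683 and 4096 UMIs (replicates 1 and 2) and the median Ccl11-low cell 4179 and 3630, over sums of 709633 and 1208972 against 1187184 and 1919322 UMIs. Mitochondrial genes took a median of 8.54% and 9.17% of UMIs in Ccl11-high and of 9.23% and 11% in Ccl11-low cells. No Ccl11-high or Ccl11-low cell had a barcode that also occurred in another library, which 15 barcodes of the series did. Most epithelial cells of 16 weeks (59.2% and 66.6%) held at least 1 Aire UMI, and Aire also stood at 86.4 and 108 CPM (UMIs per 1000000) in fibroblasts, and Aire TEC were deeper than the cells with 0 Aire UMIs, with a median of 8048 and 6808 UMIs. Without the Aire limit 582 cells of 16 weeks passed the other conditions. Libraries of 16 weeks held 21281389 and 45480790 UMIs.

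The Ccl11 level, which chose the cells, is given as a description. Ccl11 stood at 1798 and 2330 CPM in the summed Ccl11-high cells and at 113 and 124 CPM in Ccl11-low cells. Fibroblasts held 742 and 736 CPM, Aire TEC (epithelial cells with an Aire UMI) 279 and 370.5, other TEC 59.6 and 91.9, and endothelial cells 20.9 and 62.8. The Ccl11-high cells therefore carried more Ccl11 per UMI than the fibroblasts, and the Ccl11-low cells lay within the range of the classes that were not selected for it. Among single Ccl11-high cells Ccl11 ran from 0.0507% to 1.33% of UMIs with a median of 0.106%. Of the 259 cells, 46 held 2 Ccl11 UMIs and 74 held at least 10, and in the comparison 101 and 179 cells held none. Just inside the limit lay cells at 0.0507%, 0.0508% and 0.0511%, and just outside it 3 cells at 0.0496%, so cells on either side of the limit can differ by a single UMI.

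**Figure D1:**
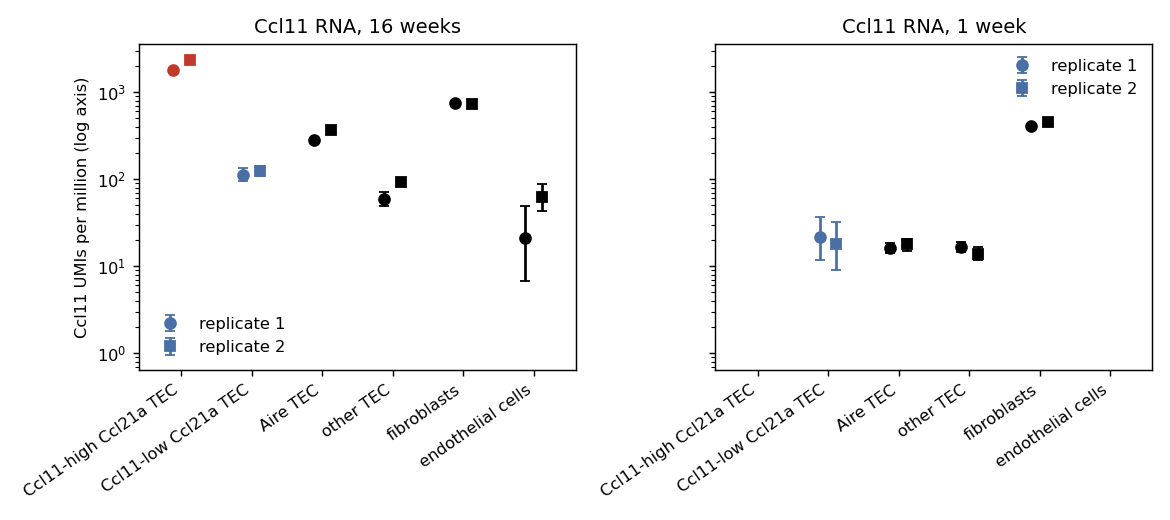
Ccl11 CPM (log axis) in the summed cells of each class and well, at 16 weeks on the left and 1 week on the right, with 95% Poisson intervals that cover counting error only. Classes with fewer than 10 cells are not drawn. The Ccl11-high cells (1798 and 2330) lie above the fibroblasts (742 and 736) because they were selected on Ccl11, and at 1 week the drawn epithelial classes lie between 13.9 and 21.7 CPM.

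Krt14 and Ccl21a also entered the rule. Ccl21a stood at 15050 and 14082 CPM in Ccl11-high and 12726 and 9828 in Ccl11-low cells, and Krt14 at 1680 and 2121 against 1226 and 1243. The fibroblast transcript Dcn, of the rule as well, came to 690.5 and 562 CPM in Ccl11-high and 549 and 628 in Ccl11-low cells, against 11270 and 11402 in fibroblasts. Its levels overlapped between the 2 epithelial classes. Col3a1 did not overlap, with 139.5 and 190.2 CPM against 96.0 and 107, and 2484 and 2307 in fibroblasts.

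Of the 4 markers given for these cells, Chil3 is the only one the rule did not use, and it marked a minority. Chil3 (Ym1), a secreted chitinase-like protein without chitinase activity, was detected in 18 of 77 (23.4%) and 38 of 182 (20.9%) Ccl11-high cells. In Ccl11-low cells the share was 7.91% and 10.3%, and in fibroblasts, which should lack it, 4.74% and 5.93% at a median of 10853 and 9505 UMIs per cell. With every cell thinned to 2000 UMIs the shares were 16.9% and 12.6% in Ccl11-high, 4.52% and 5.87% in Ccl11-low cells and 1.63% and 1.96% in fibroblasts. Ccl21a, Ccl11 and Krt14 were set by the choice of cells, and Chil3 was not detected in most of them at this depth.

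The main comparison asked which other genes differ between Ccl11-high and Ccl11-low Ccl21a TEC. Chil3, its paralog Chil4 and the protease inhibitor Timp1 were higher in Ccl11-high cells, and genes of cTEC, namely Psmb11, Prss16, Tbata and Ccl25, were lower. Of 13493 genes tested outside the rule, 113 were higher (0.837%) and 68 lower (0.504%) at an adjusted p under 0.05 (edgeR quasi-likelihood test on summed counts with the well as a block, Benjamini-Hochberg). Without the block 57 were higher and 31 lower. These counts depended on each well: 29 genes were higher and 18 lower without Ccl11-high replicate 1, 59 and 18 without Ccl11-high replicate 2, 50 and 55 without Ccl11-low replicate 1, and 16 and 28 without Ccl11-low replicate 2.

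Chil3 held 241 and 251 CPM in the Ccl11-high cells of replicates 1 and 2 and 40.4 and 71.4 CPM in the Ccl11-low cells, a log2 difference of 2.13 (SE 0.164, adjusted p = 4.65e-06). Chil4 (Ym2) held 268 and 295 against 61.5 and 99.0 CPM, a log2 difference of 1.80 (SE 0.213, adjusted p = 3.14e-04). Both Ccl11-high sums lay above both Ccl11-low sums for each gene, an order that 17% of all tested genes showed, while 24.2% showed the opposite order. The UMIs came from few cells: 5 cells held 82.5% and 59.7% of the Chil3 UMIs of Ccl11-high cells and 79.2% and 76.6% of those of Ccl11-low cells. Within Ccl11-high cells, Chil4 stood at 832 and 686 CPM in cells with a Chil3 UMI and at 48.9 and 65.6 in cells without one, but the former were also deeper, with a median of 6798 and 9876 UMIs against 4388 and 3858. Sequence could add to this overlap, since the longest coding transcripts of the paralogs were identical in 94.2% of aligned positions, and 89.4% over their last 300 bases, so reads may have been assigned to either gene; this was not tested.

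Chil3 (ENSMUSG00000040809, chromosome 3, 106147554 to 106167564, minus strand, GRCm38) and Chil4 (ENSMUSG00000063779, 106201490 to 106219507, minus strand) are neighbours on mouse chromosome 3. A further pair of genes higher in Ccl11-high cells lies on the same chromosome, 130015 bases before Chil3. Pifo (105996957 to 106014646), a gene of primary cilia, had 18 and 22 UMIs against 6 and 8 (log2 difference 2.25, adjusted p = 0.0108), and Gm42722, annotated as antisense and overlapping Pifo and one end of Chil5, held 124 and 127 CPM against 21.1 and 40.1 (log2 difference 2.01, SE 0.195, adjusted p = 9.42e-05). Pifo had too few UMIs for the naming rule and is given here for its position, chosen after its values were seen. Of the genes between them, Chia1, an acidic chitinase, had 12 and 9 UMIs against 2 and 10 (adjusted p = 0.31) and Chil5 had 2 and 8 against 1 and 1. Gm42722 and Pifo lie on opposite strands, and their counts are separate only as far as the counting used strand.

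The 250 bases before the RefSeq start of Chil3 (chr3:106167565-106167814, minus strand) and of Chil4 (chr3:106219480-106219729, minus strand; RefSeq on GRCm38.p6) are shown because both genes were higher in the same cells. Capitals mark TTCNNNGAA, the palindrome that STAT factors bind, searched on both strands, on which it reads alike, over a window reaching 50 bases past the start; Ccl11 was looked up too and has no entry in the table used.
Chil3: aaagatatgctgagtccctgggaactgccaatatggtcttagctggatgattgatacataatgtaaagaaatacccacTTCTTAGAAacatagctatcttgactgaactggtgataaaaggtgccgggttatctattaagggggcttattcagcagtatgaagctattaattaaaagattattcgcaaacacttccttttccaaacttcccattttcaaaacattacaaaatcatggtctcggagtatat
Chil4: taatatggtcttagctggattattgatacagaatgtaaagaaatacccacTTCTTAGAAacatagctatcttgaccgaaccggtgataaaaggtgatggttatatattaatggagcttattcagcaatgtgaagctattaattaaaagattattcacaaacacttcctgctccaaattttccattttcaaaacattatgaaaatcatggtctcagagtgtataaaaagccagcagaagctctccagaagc
Each window held 1 match. It lay 172 bases before the start of Chil3, and 200 bases before the RefSeq start of Chil4, which is 28 bases inside the GENCODE gene model given above, so that from the GENCODE starts the distance was 172 bases in both genes. Of all windows, 8.30% of 32851 of this length held at least 1. The 2 windows were identical in 76.6% of aligned positions, so the matches are not independent of each other. Only this spacing was searched, and no match was assigned to a particular STAT factor. A match is a stretch of letters, and binding was not measured.

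Timp1, which inhibits matrix metalloproteinases, held 410.1 and 265 CPM in Ccl11-high and 48.0 and 133 in Ccl11-low cells (log2 difference 1.87, SE 0.283, adjusted p = 0.00277). The sums did not overlap, and a single cell of replicate 1 held 175 of its 291 Timp1 UMIs; without Ccl11-high replicate 1 the difference was 1.26 with an adjusted p of 0.0555. Other secreted or signalling products followed. Tac1, the precursor of substance P, held 59.2 and 33.1 against 13.5 and 12.5 CPM (log2 difference 1.81), of which 1 cell of replicate 1 held 27 of 42 UMIs, and Ptgdr, a prostaglandin D2 receptor, 47.9 and 43.8 against 17.7 and 14.1 (1.58). Fibin held 35.2 and 80.2 against 16.0 and 17.7 CPM (1.87), and 1 Ccl11-high cell of replicate 2 held 26 of 97 UMIs.

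Enzymes and surface molecules made up the rest of the 12 genes named for the size of their difference. Bbox1, the last enzyme of carnitine synthesis, held 29.6 and 56.2 against 15.2 and 11.5 CPM (log2 difference 1.83), Cdo1, which oxidises cysteine, 56.4 and 72.0 against 21.9 and 23.4 (1.56), and Egln3, a hypoxia-inducible factor hydroxylase, 39.5 and 48.8 against 16.0 and 15.1 (1.57). A single Ccl11-high cell of replicate 2 held 26 of 68 Bbox1 UMIs. At 2000 UMIs per cell Bbox1 was found in 3.90% and 3.85% against 2.82% and 1.76%, with overlapping intervals. The mTEC surface gene Ly6d held 224 and 395 against 85.1 and 106 CPM (1.74), with 68.6% and 67.7% of the Ccl11-high UMIs in 5 cells. Aire TEC held 192 and 247 CPM of Ly6d and other TEC 84 and 332, which overlapped the Ccl11-high values. At 2000 UMIs per cell Ly6d was found in 23.4% and 28.6% of Ccl11-high against 18.1% and 24.9% of Ccl11-low cells. Mcam, which encodes CD146, held 28.2 and 37.2 against 12.6 and 11.5 (1.53, adjusted p = 0.0274). In each of these 12 genes both Ccl11-high sums lay above both Ccl11-low sums, but only Chil3, Chil4 and Gm42722 passed the test with each of the 4 sums left out in turn. At 2000 UMIs per cell Cdo1 was found in 2.60% of Ccl11-high against 4.52% of Ccl11-low cells of replicate 1, opposite to replicate 2 (9.89% against 2.93%).

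**Figure D2:**
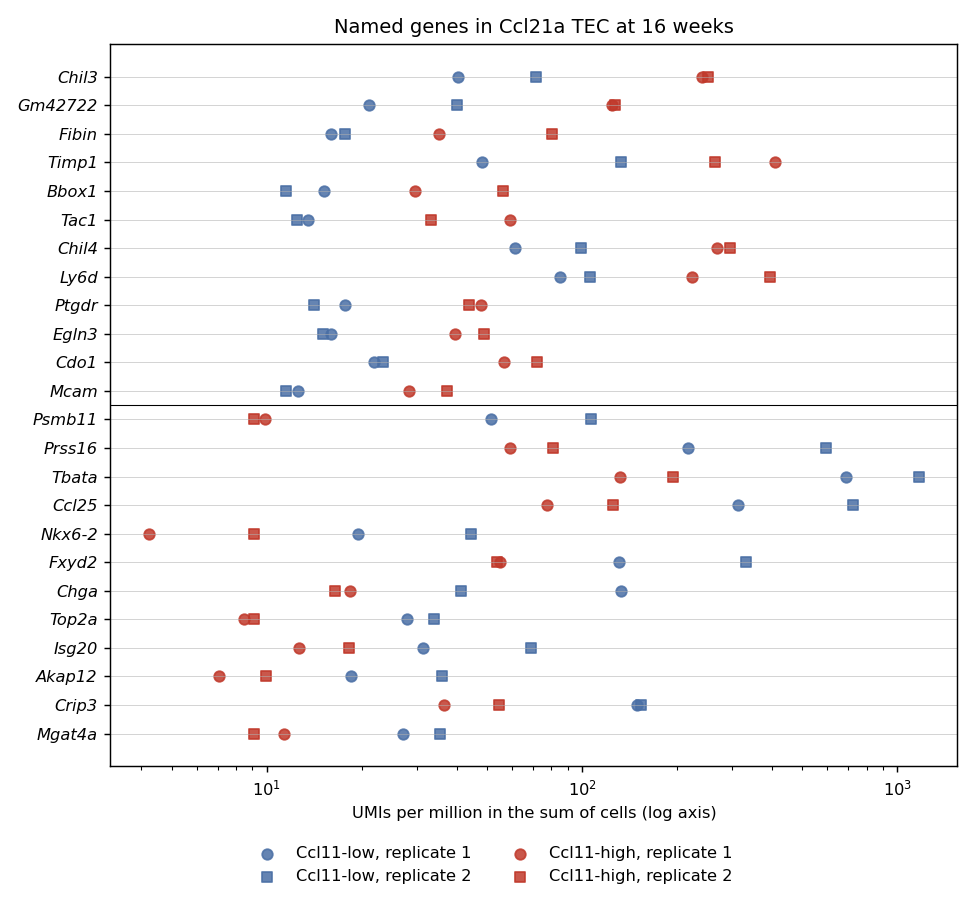
CPM (log axis) of the 24 genes with the largest called differences, 12 higher and 12 lower in Ccl11-high cells, in the summed cells of each class and well at 16 weeks. Red points are Ccl11-high and blue points Ccl11-low cells; the red and blue pairs do not overlap for any of these genes, which were chosen for called differences of one sign in both wells.

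The genes lower in Ccl11-high cells were led by those of cTEC. Psmb11, the catalytic subunit of the thymoproteasome, held 9.86 and 9.10 CPM in Ccl11-high and 51.4 and 107 in Ccl11-low cells (log2 difference -3.12, SE 0.351, adjusted p = 2.42e-04). Prss16, the thymus-specific serine protease, held 59.2 and 81.1 against 217 and 595 (-2.47, adjusted p = 1.31e-04), and Tbata 132 and 195 against 686 and 1171 (-2.44, adjusted p = 1.35e-07). Ccl25, the cortical ligand of Ccr9, held 77.5 and 125 against 312 and 722 CPM (-2.28, adjusted p = 1.31e-04). Fibroblasts, which should lack these transcripts, held 9.57 and 10.2 CPM of Psmb11, 33.4 and 42.9 of Prss16, 99.5 and 117 of Tbata and 55.0 and 72.7 of Ccl25. The Ccl11-high level overlapped the fibroblast level for Psmb11 and lay above it for the other 3 genes, so that part of the remaining RNA may be free RNA, which was not tested.

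Of the 10 cTEC genes listed, 7 were lower (against 0.504% of all tested genes) and none higher, with a median log2 difference of -1.23 against -0.01 over all genes. The 7 included Foxn1, the transcription factor on which TEC depend (33.8 and 19.0 against 78.3 and 74.5 CPM, -1.58, adjusted p = 0.00258), Cxcl12 (104 and 122 against 195 and 231, -0.87) and Ctsl, the cathepsin that trims cortical class II ligands (1595 and 1744 against 1998 and 2854, -0.49). For Tbata, Aire TEC (1085 and 1215 CPM) and other TEC (670.4 and 822) of the same wells stood near the Ccl11-low cells. The remaining genes of the lower 12 included Fxyd2, a regulator of the sodium pump (55.0 and 53.8 against 131 and 332 CPM), Crip3 (36.6 and 54.6 against 149 and 154), the neuroendocrine granule gene Chga (18.3 and 16.5 against 133 and 41.2) and the homeobox gene Nkx6-2 (4.23 and 9.10 against 19.4 and 44.3).

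The exonuclease Isg20 (12.7 and 18.2 against 31.2 and 68.8 CPM), the kinase anchor Akap12 (7.05 and 9.93 against 18.5 and 36.0), the glycosyltransferase Mgat4a (11.3 and 9.10 against 27.0 and 35.4) and the topoisomerase Top2a (8.46 and 9.10 against 27.8 and 33.9) completed the 12. Of these 12 genes, Prss16, Tbata, Ccl25 and Crip3 passed with each sum left out in turn, but at 2000 UMIs per cell Crip3 differed by -0.51 without passing (adjusted p = 0.634) and was found in 14.3% and 15.9% of Ccl11-high against 17.5% and 13.2% of Ccl11-low cells. Psmb11 did not without Ccl11-high replicate 2 (-2.77, adjusted p = 0.0639).

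A few Ccl11-low cells held much of this RNA. In replicate 2, 5 of 341 Ccl11-low cells held 69.1% of the Tbata, 65.2% of the Prss16, 74.2% of the Ccl25 and 77.7% of the Psmb11 UMIs, and 1 cell held 118 of the 158 Chga UMIs of replicate 1. In replicate 2 the top 5 cells also held 77.9% of the Fxyd2, 68.2% of the Nkx6-2, 65.2% of the Isg20 and 60.8% of the Chga UMIs. Their share was lower for Top2a (56.9%), Crip3 (48%), Akap12 (30.4%) and Mgat4a (19.1%). The share of cells with a UMI was closer between the classes than the sums were. At 2000 UMIs per cell, Tbata was found in 27.3% (95% exact binomial interval 17.7 to 38.6) and 33.5% (26.7 to 40.9) of Ccl11-high cells, 46.3% (38.8 to 54.0) and 50.7% (45.3 to 56.2) of Ccl11-low cells and 22.1% and 23.1% of fibroblasts. Prss16 was found in 13.0% and 14.8%, 20.3% and 22.9%, and 7.26% and 10.2%, and its intervals in Ccl11-high and Ccl11-low cells overlapped. Fxyd2 was found in 16.9% and 11.5% of Ccl11-high against 18.1% and 16.7% of Ccl11-low cells, and its intervals overlapped too. Summed with the same number of UMIs from every cell, the log2 difference was -1.15 for Tbata, -1.70 for Prss16 and -1.04 for Ccl25, and these 3 genes still passed the test, whereas Chil3 (2.13) and Chil4 (2.20) kept their size.

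**Figure D3:**
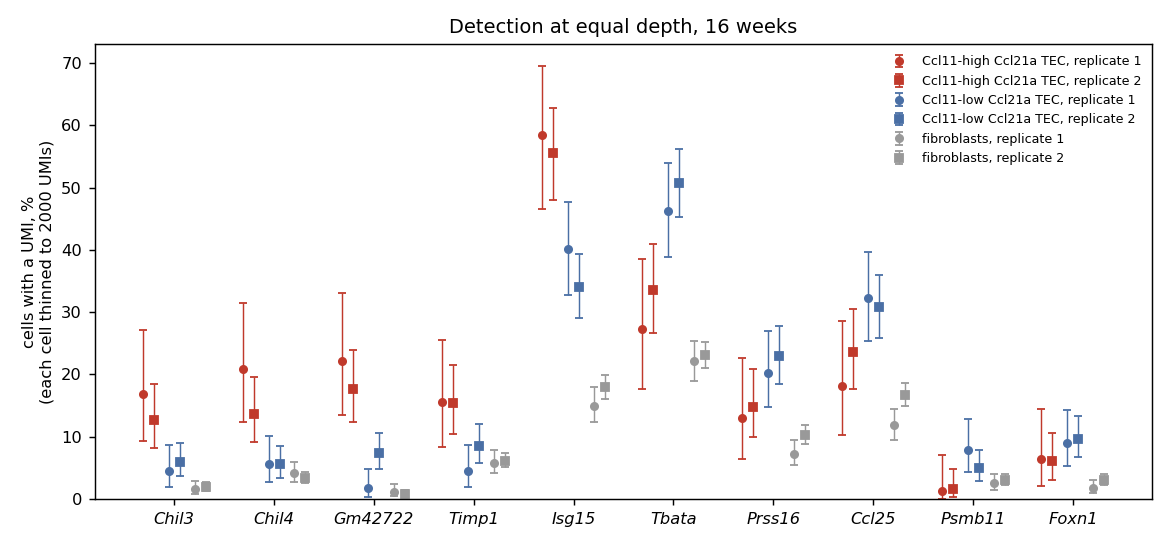
Share of cells with at least 1 UMI after each cell was thinned to 2000 UMIs, for 10 genes in Ccl11-high cells, Ccl11-low cells and fibroblasts of the 16-week wells, with 95% exact binomial intervals that cover counting error only. Chil3, Chil4, Gm42722 and Isg15 were found more often in Ccl11-high cells, and Tbata was found less often (27.3% and 33.5% against 46.3% and 50.7%), nearer to the fibroblasts at 22.1% and 23.1%. Intervals of Ccl11-high and Ccl11-low cells overlapped for Chil3 in replicate 2 (8.18 to 18.4 and 3.62 to 8.91). They also overlapped for Isg15 in replicate 1 (46.6 to 69.6 and 32.8 to 47.7), and the shares were not tested.

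Cells were also grouped by their Ccl11 level, with no test, since the grouping uses the rule. Chil3 stood at 7.27 and 16.6 CPM in cells with 0 Ccl11 UMIs (101 and 179 cells), at 69.1 and 120.2 in cells with some Ccl11 below the limit, at 464 and 97.9 from 0.05% to 0.1% and at 71.6 and 433 above 0.2% (16 and 39 cells). Both wells were lowest in cells with 0 Ccl11 UMIs, and above the limit they took no common order. Tbata fell from 429 and 1827 CPM in cells with 0 Ccl11 UMIs to 83.5 and 136 in cells above 0.2%, and in replicate 1 its highest value, 909, lay in cells with some Ccl11 below the limit. The cells with 0 Ccl11 UMIs were also the shallowest, with a median of 3886 and 3257 UMIs against 14645 and 6292 in those above 0.2%, and the lowest in Ccl21a, with 9250 and 6628 against 18922 and 18835 CPM. The part of depth and of Ccl21a in these levels was not tested.

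**Figure D4:**
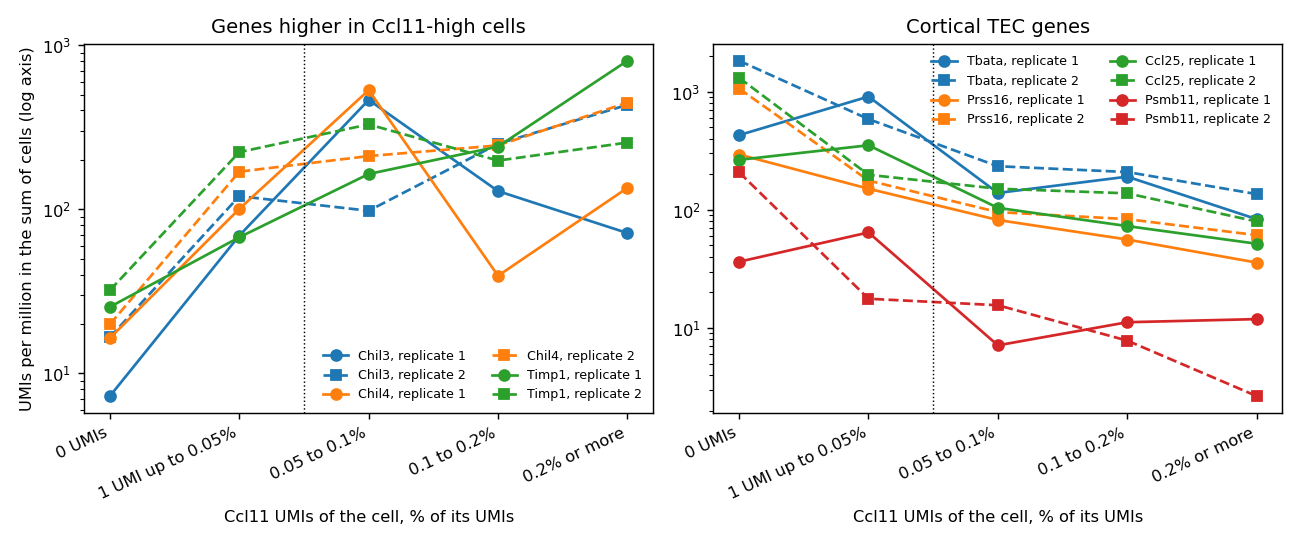
CPM (log axis) of 3 genes higher in Ccl11-high cells (left) and 4 cTEC genes (right), in Ccl21a TEC of 16 weeks grouped by the share of Ccl11 among a cell's UMIs; solid lines are replicate 1, dashed lines replicate 2, and the dotted line is the limit of 0.05%. Chil3 is lowest in cells without Ccl11 (7.27 and 16.6 CPM), and above the limit its wells take no common order. Prss16 falls from 294 and 1063 to 35.8 and 61.1 in cells above 0.2%.

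Because Ccl11, Chil3 and Chil4 are known targets of type 2 cytokines, the pathway was examined member by member. Of 25 genes of this list tested, 4 were higher (against 0.837% of all tested genes) and none lower (against 0.504%), with a median log2 difference of 0.00. Besides Chil3 and Chil4 these were Alox15, a lipoxygenase (76.1 and 76.9 against 42.1 and 45.3 CPM, log2 difference 0.83, adjusted p = 0.035), whose call was lost in 9 of 16 alternatives, and Fcgbp, a mucus protein (5296 and 6048 against 3625 and 3744, 0.66, adjusted p = 0.00288). The levels of both genes did not overlap between the classes. The Alox15 call was lost with each of the 4 sums left out (log2 differences from 0.71 to 1.02, adjusted p from 0.0876 to 0.341), without the block (0.84, adjusted p = 0.108), under DESeq2 (0.84, adjusted p = 0.0519) and at equal depth (0.86, adjusted p = 0.383), at a size near the main one.

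The receptors and transducers of the pathway did not pass the test. Il4ra, the chain that Il4 and Il13 share, held 94.4 and 102 against 63.2 and 72.4 CPM (log2 difference 0.56, adjusted p = 0.102), Il13ra1 80.3 and 72.8 against 61.5 and 58.9 (0.38, 0.324), the decoy receptor Il13ra2 49.3 and 33.9 against 19.4 and 21.4 (1.00, 0.0919) and Il2rg 5.64 and 12.4 against 9.27 and 13.5. Over 16 alternatives the differences stayed positive for Il4ra (0.36 to 0.79), Il13ra1 (0.28 to 0.50) and Il13ra2 (0.60 to 1.43), and Il13ra2 passed in 3 of them. Stat6, the factor both cytokines activate, held 32.4 and 33.9 against 28.6 and 30.2 CPM (0.21, 0.783), Jak1 145 and 137 against 159 and 163, Jak3 11.3 and 9.10 against 10.1 and 12.5 and Tyk2 12.7 and 27.3 against 21.1 and 22.9. The feedback genes Socs1 (62.0 and 61.2 against 58.1 and 58.9 CPM), Socs3 (121 and 127 against 141 and 123) and Cish (109 and 93.5 against 102 and 83.4) had adjusted p-values from 0.751 to 0.97.

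Further type 2 targets were at low levels or did not pass. Postn, a matricellular protein, held 64.8 and 86.9 against 80.9 and 90.7 CPM, Clca3a1 60.6 and 72.8 against 85.1 and 83.4, Serpinb2 5.64 and 14.9 against 8.42 and 14.1, Retnla 8.46 and 7.44 against 2.53 and 6.77 and Tff3 1.41 and 7.44 against 7.58 and 9.38. Ccl24 (eotaxin-2), a further ligand of Ccr3, had 0 UMIs in both classes. The cytokine Il33 had 9 and 16 UMIs against 17 and 23. Il13, which the list did not hold and which was looked up after the values above were seen, had 12 and 21 UMIs against 22 and 45 (adjusted p = 0.783), and stood higher in Aire TEC (63.4 and 66.1 CPM). Of the 11 markers of eosinophils and mast cells, Siglecf, Ccr3, Cpa3 and Fcer1a had 0 UMIs in Ccl11-high cells, while Prg2, an eosinophil granule protein, had 13 and 17 UMIs against 24 and 60 and the ribonuclease Ear2 had 3 and 18 against 5 and 3. None of the 5 tested was called, and Ear2 was not among them.

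Among chemokines, 1 of 23 tested was higher (against 0.837% of all tested genes) and 2 lower (against 0.504%), and the median log2 difference was -0.11. Ccl7, a ligand of Ccr1, Ccr2 and Ccr3, held 38.0 and 52.9 against 16.0 and 18.2 CPM (log2 difference 1.47, SE 0.282, adjusted p = 0.0149). Ccl7 (chromosome 11, 82045712 to 82047525, GRCm38) lies just before Ccl11 (82057823 to 82062955, both plus strand). Fibroblasts held 68.7 and 72.1 CPM of it. Ccl8, in the same cluster at 82115185 to 82116799, held 55.0 and 72.0 against 20.2 and 15.6 CPM without passing (1.93, adjusted p = 0.077), but it passed in 5 of 16 alternatives and Ccl7 lost its call in 5, so the neighbours are not shown to differ, while Ccl2, upstream of Ccl7, had 10 and 14 UMIs against 4 and 48 (adjusted p = 0.854) and Ccl12 had 0 UMIs in Ccl11-high cells. The chemokines that were lower are Ccl25 and Cxcl12, given above.

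The other chemokines with at least 20 UMIs did not pass, although of 16 alternatives Cxcl14 passed in 4, Cxcl9 in 3 and Ccl5 and Cx3cl1 in 2 each, and Ccl19 and Cxcl11 were called lower in 1 each. Ccl19, which shares the receptor Ccr7 with Ccl21a, held 197 and 201 against 196 and 345 CPM (log2 difference -0.41), the interferon-induced Cxcl9 218 and 43.8 against 43.8 and 65.1, Cxcl10 316 and 323 against 354 and 398 and Cxcl11 18.3 and 28.1 against 48.0 and 26.1. Wells of a class differed widely for Cxcl9 and for Ccl5 (203 and 68.7 against 85.9 and 82.3). Cx3cl1 held 59.2 and 61.2 against 38.7 and 38.0 CPM (0.69, adjusted p = 0.0696), Cxcl14 35.2 and 107 against 49.7 and 32.3 and Cxcl16 86.0 and 89.3 against 95.2 and 84.4. Ccl27a, Cxcl1, Cxcl2, Cxcl13, Ccl20, Ccl22, Ccl6 and Ccl9 had log2 differences from -0.72 to 0.51 and adjusted p-values of 0.236 or more.

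Several interferon-response genes were higher in Ccl11-high cells, 6 of the 17 listed (against 0.837% of all tested genes) with none lower and a list median of 0.28, although Isg20, interferon-stimulated as well but not in the list, was among the lower genes above. Isg15, a ubiquitin-like modifier, held 730 and 801 CPM against 484 and 467 (log2 difference 0.72, SE 0.103, adjusted p = 0.00203) and at equal depth was found in 58.4% and 55.5% of Ccl11-high and 40.1% and 34% of Ccl11-low cells. Irf7 held 290.3 and 293 against 195 and 184 CPM (0.66, adjusted p = 0.0188) and Ifit3 264 and 257 against 171 and 146 (0.76, adjusted p = 0.0191). Ifit1, Ifitm3 and Ly6a were the others. Of 16 alternatives, 1 lost the call of Isg15, 5 that of Irf7, 7 that of Ifit3, 9 that of Ifit1 and 7 that of Ifitm3. Stat2 (142 and 182 against 165 and 154 CPM), which transmits the interferon signal, did not pass and overlapped between the classes.

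Ly6a, which encodes Sca1, held 2077 and 1697 CPM against 1138 and 1217 (log2 difference 0.72, SE 0.124, adjusted p = 0.00672). With Mcam it was one of 2 higher among the 5 tested genes of intertypical TEC, a Ccl21a-positive class with features of cortex and medulla. The Mcam call was lost in 8 of 16 alternatives, with each sum left out among them, while its log2 difference stayed between 1.09 and 1.77. At equal depth Mcam was found in 5.19% and 8.79% of Ccl11-high against 5.08% and 3.23% of Ccl11-low cells, so replicate 1 showed nearly equal shares. Pdpn held 91.6 and 76.9 against 64.0 and 51.6 (0.59, adjusted p = 0.0865), Plet1 24.0 and 23.2 against 6.74 and 16.2 (0.96, 0.215) and Itga6 565 and 591 against 506 and 481 (0.27, 0.234). These 3 genes did not pass.

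Of 19 tested genes of BMP, WNT and TGF-beta signalling, 4 were higher (against 0.837% of all tested genes) and none lower (against 0.504%). The list median was 0.29. The BMP-inducible Id1 held 286 and 246 against 170.2 and 149 CPM (log2 difference 0.77, adjusted p = 0.00203), Id3 531 and 424 against 329 and 258 (0.74, adjusted p = 0.0101), the ligand Wnt10a 33.8 and 42.2 against 16.0 and 18.2 (1.20, adjusted p = 0.0233) and Tgfbi 123 and 132 against 86.8 and 85.4 (0.61, adjusted p = 0.0384). The calls of Wnt10a and Tgfbi were lost in 7 and 10 of 16 alternatives, with each sum left out among them (adjusted p from 0.0791 to 0.309 and from 0.1 to 0.363), and those of Id1 and Id3 in 3 and 5. Id1 was found at equal depth in 36.4% and 20.3% of Ccl11-high against 20.3% and 20.8% of Ccl11-low cells, so replicate 2 showed no higher share. At 2000 UMIs per cell Wnt10a stood at 39 and 19.2 against 14.1 and 22 CPM, which overlapped, and the difference was 0.36 for Wnt10a (0.94) and for Tgfbi (0.802). Of basal keratinocyte and hemidesmosome genes, P-cadherin (Cdh3, log2 difference 0.82, adjusted p = 0.0188) and the tetraspanin Cd9 (0.50, adjusted p = 0.0357) were higher and 16 of 18 did not pass. Trp63, the regulator of basal epithelia, held 272 and 228 against 308 and 278.

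In the extracellular matrix list Timp1, Mgp (1336 and 1119 against 836 and 759 CPM) and Lamb1 (259 and 225 against 162 and 168) were higher, 3 of 19, and in the complement list C3 (1408 and 1510 against 1081 and 1181), 1 of 13. Over all tested genes 0.837% were higher. Fibroblasts held more Mgp (3335 and 3303 CPM) and C3 (4586 and 4309) than either class. None of the 5 tested fibroblast markers of the list outside the rule was called, with Lum at 56.4 and 61.2 against 55.6 and 66.2 CPM. Other collagen genes, in no list and chosen after their values were seen, were higher, namely Col6a1 (503 and 519 against 307 and 338 CPM, log2 difference 0.70, adjusted p = 0.00258), Col6a2 (458 and 461 against 235 and 273, 0.89, adjusted p = 3.08e-04) and Col5a2 (132 and 168 against 78.3 and 106, 0.73, adjusted p = 0.0133). Fibroblasts held 1292 and 1254, 1252 and 1171, and 454 and 413 CPM of these genes, and the part of fibroblast RNA in the collagen calls was not tested. The listed collagen genes Col4a1 (log2 difference 0.03), Col4a2 (-0.14) and Col17a1 (0.09) did not pass. Of the rule genes, Col1a1 held 12.7 and 24 against 31.2 and 28.7 CPM and Col1a2 47.9 and 31.4 against 40.4 and 49.5. No count was made over all collagen genes. The summed fibroblast list came to 1023 and 935 CPM in Ccl11-high, 868 and 974 in Ccl11-low and 20167 and 19355 in fibroblasts, so it overlapped between the epithelial classes. This sum includes the rule genes Col1a1, Col1a2, Col3a1 and Dcn, which the choice of cells limited in both epithelial classes. Dcn alone made up 690.5 and 562 CPM of it in Ccl11-high cells. Among 6 mural genes Acta2, smooth muscle actin, was higher (1263 and 977 against 428 and 689 CPM, log2 difference 1.03, adjusted p = 0.0166), and Rgs5, Myh11, Pdgfrb, Cspg4 and Notch3 were not called, and the summed list was 1805 and 1305 against 772 and 1061, but the other 5 mural genes together held 543 and 328 against 345 and 371 CPM, which overlapped. The Acta2 call was lost in 6 of 16 alternatives, among them without the block (adjusted p = 0.0604), under DESeq2 (0.234), without Ccl11-high replicate 1 (0.73, 0.35) and without Ccl11-low replicate 1 (0.67, 0.245). None of 6 endothelial, 7 haematopoietic and 2 mesothelial genes tested was called, and Cd4 had 0 UMIs in Ccl11-high cells.

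Genes of antigen presentation and of the later mTEC states did not pass. None of 11 class II presentation genes was called (list median 0.01), with Cd74 at 7221 and 7313 against 7162 and 7721 CPM and H2-Ab1 at 3148 and 2749 against 2746 and 2883. Fezf2, an inducer of peripheral antigens, held 95.8 and 122 against 153 and 151 (adjusted p = 0.279), and none of 10 mature mTEC genes was called. Keratinocyte-like (0 of 9, Krtdap 285 and 158 against 104 and 138 CPM), tuft-like (0 of 9, Dclk1 93.0 and 146 against 94.3 and 116) and microfold-like genes (0 of 6, Tnfaip2 107 and 71.1 against 52.2 and 52.6) gave no call. A missed threshold in 2 wells does not show that these genes were alike.

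The lymphotoxin, RANK and NF-kB list, the pathway through which Ccl21a TEC and mTEC are induced, had 0 of 17 genes called (list median -0.12), with Nfkbia at 445 and 371 against 418 and 487 CPM and Icam1 at 313 and 323 against 317 and 307. Of 12 cell cycle genes Top2a was lower. Further lists with no call were epithelial cytokines (11 tested, Il7 at 166 and 178 against 206 and 152 CPM), chemokine receptors (5 tested, Ackr4 at 43.7 and 23.2 against 65.7 and 26.6), simple keratins (4 tested, Krt7 at 345 and 371 against 266 and 375) and immediate early and heat shock genes (17 tested, Jun at 2097 and 2194 against 2300 and 2318). Of 17 chitinase-like and mucosal secretory genes only Chil3 and Chil4 were called, and Wfdc18, an epithelial secretory protein, held 1095 and 716 against 786 and 743 CPM.

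The surface tags did not enter the rule. On Ccl11-high cells Sca1, Podoplanin and Epcam took a larger share of the tag counts and MHCII and CD80 a smaller one. The barcode of each called tag is shown, since the counts below are counts of these sequences, with no part set apart.
Sca1: ttcctttcctacgca
Podoplanin: gggcgatttagtgtg
Epcam: acccgcgttagtatg
MHCII: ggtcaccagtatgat
CD80: gacccggtgtcattt
Of 27 tags tested, 3 were higher (11.1%) and 2 lower (7.41%) at an adjusted p under 0.05, with the total tag count as the denominator. The median Ccl11-high cell held 2810 and 1634 tag counts and the median Ccl11-low cell 2400 and 1953.

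Sca1 made up 14.1% of the tag counts of Ccl11-high cells in each well and 9.90% and 10.4% of those of Ccl11-low cells (log2 difference 0.48, SE 0.072, adjusted p = 0.0133). Its direction was that of Ly6a RNA. MHCII took 25.7% and 22.2% against 32.4% and 34.2% (-0.48, SE 0.070, adjusted p = 0.0133), whereas RNA of the class II genes gave no call. CD80, the costimulatory ligand of mature mTEC, took 0.178% and 0.209% against 0.283% and 0.275% (-0.53, adjusted p = 0.0362). Podoplanin took 0.868% and 0.689% against 0.607% and 0.510% (0.48, adjusted p = 0.0362) and Epcam 2.48% and 2.56% against 2.11% and 2.17% (0.24, adjusted p = 0.0495). None of these 5 tags overlapped between the classes, as held for 6 of all 27 tags in the higher (22.2%) and 11 in the lower direction (40.7%).

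UEA1, the lectin that binds mTEC, took 43.8% and 49.5% against 42.8% and 41.9% of the counts (log2 difference 0.14, adjusted p = 0.128). CD146 had 19 and 29 counts against 41 and 74, too few to set beside its gene Mcam. Tag shares depend on one another, since UEA1 and MHCII took most counts. Counted per cell, Sca1 averaged 446 and 277 against 324 and 255 counts, which no longer passed (log2 difference 0.29, adjusted p = 0.0854), and Podoplanin (0.30, 0.201) and Epcam (0.05, 0.751) did not pass either, while MHCII averaged 811 and 438 against 1059 and 839 (-0.66, adjusted p = 0.0217) and CD80 5.61 and 4.12 against 9.27 and 6.74 (-0.72, adjusted p = 0.0217).

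The tag differences also moved with Ccl21a. Where both classes needed Ccl21a at 0.5% of UMIs, none of the 5 tags passed: MHCII differed by -0.10 (adjusted p = 0.336), Sca1 by 0.07 (0.807), Epcam by 0.11 (0.622), CD80 by 0.04 (0.915) and Podoplanin by -0.21 (0.552). The RNA differences of Chil3 (1.74, adjusted p = 1.60e-05), Tbata (-2.41, adjusted p = 7.78e-07) and Prss16 (-2.13, adjusted p = 2.57e-06) passed under that limit. MHCII alone of the 5 passed with each sum left out in turn, and 0 tags were higher without Ccl11-high replicate 1 and without Ccl11-low replicate 2. Over all tags, 1 was higher and 2 lower without the block, 1 and 1 without doublets and 5 and 0 with TMM factors, and 0 of the 5 passed under every alternative run.

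**Figure D5:**
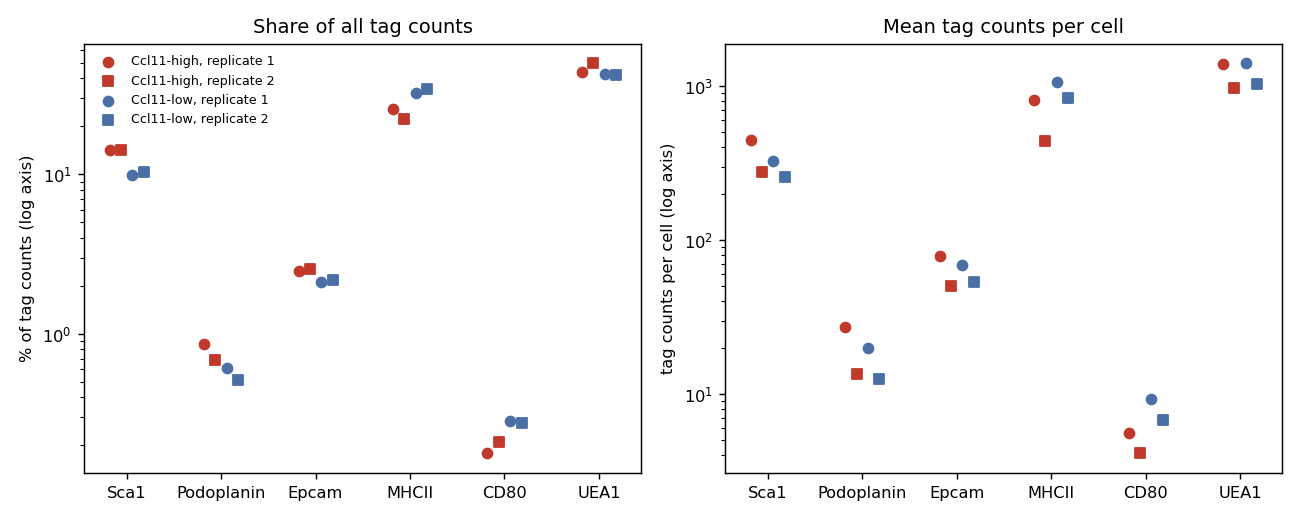
The 5 called tags and UEA1 in Ccl11-high (red) and Ccl11-low (blue) cells of the 16-week wells, as a share of all tag counts (left, log axis) and as mean counts per cell (right, log axis). Sca1 takes 14.1% of counts in Ccl11-high cells of both wells, above 9.90% and 10.4%, while per cell its values of 446, 277, 324 and 255 overlap between the classes.

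The last comparison asked how frequent Ccl11-high cells were at each age. They made up 77 of 254 (30.3%, 95% exact binomial interval 24.7 to 36.4) and 182 of 523 (34.8%, 30.7 to 39.1) Ccl21a TEC at 16 weeks, or 32.6% ± 3.17 (SD, n = 2 wells). At a Ccl11 limit of 0.1% the shares were 17.3% and 18.5%, and in cells without fibroblast UMIs 2 of 16 (12.5%) and 9 of 32 (28.1%). At 1 week they were 0 of 52 (0 to 6.85, and up to 5.77% by a limit of 3 counts) and 1 of 58 (1.72%, 0.0436 to 9.24). The intervals cover counting error over cells only. With 1 pool per age the difference was not tested, and age and pool cannot be told apart. The 1-week Ccl11-low cells were the deeper, with a median of 6646 and 5473 UMIs.

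Both ages had larger shares at equal depth. Thinned to 2000 UMIs, where the limit is a single UMI and fewer cells show an Aire UMI, 39.9% of 383 and 48.1% of 863 cells passed at 16 weeks and 11.3% of 62 and 10.9% of 55 at 1 week, while 49.8% and 55.1% of 16-week and 36.0% and 31.6% of 1-week fibroblasts held a Ccl11 UMI at that depth. Ccl11 in Ccl11-low cells stood at 21.7 and 18 CPM at 1 week against 113 and 124 at 16 weeks, and in fibroblasts at 411 and 459.6 against 742 and 736. These levels were lower at 1 week in both cell types, and the part of free RNA in the epithelial values was not tested. With 0 and 1 Ccl11-high cells at 1 week, whether the RNA differences of 16 weeks hold at 1 week could not be examined.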

How the data were processed

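Thymic stroma of 1-week-old and 16-week-old mice was measured as 4 mRNA and 4 tag libraries. The authors aligned reads to mm10 with STARsolo 2.7.9a and deposited whole-number counts per gene (UMIs) and per tag for 9953 cells with at least 2000 UMIs, neither normalised nor annotated by cell type, and the tag barcodes. The labels name version 2 of the reagent kit and the methods another, which was not resolved.

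Members and gene lists were chosen with earlier results of these data known. Of 55487 gene identifiers 55141 matched a symbol in GENCODE M21. Cells were classed by rule, raw counts were summed per well and class, and 8 sums (4 epithelial classes, 2 wells) were fitted with edgeR 4.0.16 (R 4.3.3; quasi-likelihood, TMM, filterByExpr with a minimum count of 10, well as block, Benjamini-Hochberg). The block rests on both classes coming from the same wells. Tags were fitted alike with the total tag count as library size. Rule genes stayed in the fit and in the adjustment, but they were left out of the counts and are given without a test result. Genes named were the 12 with the largest called differences per direction (same sign in both wells, at least 100 UMIs in the 4 sums), list members by count (called ones first, otherwise the most abundant), all type 2 and chemokine genes with at least 20 UMIs, called tags, UEA1 and CD146. CPM are UMIs per 1000000 of a sum; medians of lists are of log2 differences. Doublets stayed in; Scrublet set its own limit at 14 cells, which is implausibly few, and 1 alternative leaves out the 253 cells (2.54%) of highest score. The scripts were tested on simulated data with known changes. Alternatives included DESeq2 1.42.0. Results for some genes are not reported here.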

Additional observations from a re-analysis of the deposited data

How the results depend on the processing

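The wells of an age share 1 pool, so no alternative tests the spread between mice, and counts below are genes higher then lower in Ccl11-high cells (main 113 and 68 of 13493), followed by tags (main 3 and 2 of 27). For genes, alternatives gave 171 and 112 with up to 2 Aire UMIs, 234 and 107 with Ccl11 at 0.1%, 50 and 34 with Ccl21a at 0.5%, 172 and 125 against cells with 0 Ccl11 UMIs, 176 and 196 with no low-count filter, 57 and 31 without the replicate block, 163 and 129 from the 4 sums alone and 45 and 39 with cells thinned to 2000 UMIs. Leaving out 1 sum gave 16 to 59 higher and 18 to 55 lower genes, with the lone sum assumed to vary like the rest. DESeq2, its size factors, deeper cells and removal of doublets kept both counts within 1.5 times. For tags the counts were 0 and 0 with up to 2 Aire UMIs, 0 and 2 with Ccl21a at 0.5%, 5 and 0 with TMM factors, 4 and 6 with DESeq2, 1 and 3 in deeper cells, 1 and 1 without doublets, 1 and 2 without the replicate block, 1 and 0 from the 4 sums alone, 0 and 2 per cell, 0 and 6 with MHCII and UEA1 left out of the total, and 0 to 4 higher and 1 to 2 lower with 1 sum left out. At an unadjusted p under 0.05, 5 tags passed with up to 2 Aire UMIs, 4 with Ccl21a at 0.5%, 11 with TMM factors, 12 from the 4 sums alone, 11 per cell and 11 without MHCII and UEA1. The direction turned in 3 of the 5 called tags: Podoplanin (-0.21) and CD80 (0.036) with Ccl21a at 0.5%, and Epcam (-0.032) without MHCII and UEA1 in the total. Of the tags not called, UEA1 turned to -0.05 per cell and CD146 ran from -0.27 to 0.93. The cause was not tested.

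The share of Ccl11-high cells at 16 weeks (32.6%) was 44.0% thinned, 17.9% at a limit of 0.1%, 42.2% with Ccl21a at 0.5%, 36.8% in deeper cells, 20.3% without fibroblast UMIs and 63.0% at 1 UMI of Ccl11, and 30.3% to 34.8% in single wells. At 1 week (0.862%) it was 11.1% thinned, 22.0% at 1 UMI and 0% to 1.72% in single wells. Of the 24 named genes, Chil3, Chil4, Gm42722, Tbata, Prss16 and Ccl25 passed under each of the 16 alternatives run for genes, and none of the 24 turned direction. Among other called list genes, the call was lost in 1 of 16 alternatives for Fcgbp, 2 for Foxn1 and Cxcl12, 4 for Ly6a, 5 for Ccl7, Mgp and Cdh3, 6 for Ctsl and Lamb1, 7 for Cd9 and 8 for C3. The alternatives on Aire, on Ccl21a for genes and tags, and on tags per cell were chosen after seeing the data. Cells without fibroblast UMIs (2 and 9 Ccl11-high) were under the minimum of 10 per sum, and a trial fit called 0 genes higher and 1 lower by edgeR. The interaction of age and class and its alternatives were not run.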

Other observations

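Some genes outside the naming rule stood out after their values were seen. 1500015O10Rik, with 95 UMIs in all, just missed the minimum of 100 and had 56 and 27 UMIs in Ccl11-high against 3 and 9 in Ccl11-low cells (log2 difference 3.55, adjusted p = 0.00282, edgeR), the largest called difference of the 113 higher genes. Among called genes, 14 pairs of neighbours were both higher and 4 both lower, among the former Col6a2 and Col6a1, Ifit3 and Ifit3b, Ifit3b and Ifit1, and Ifitm1 and Ifitm3, and 2 pairs are given with values. The lipoxygenase genes Alox12e (199 and 224 against 104 and 133 CPM, log2 difference 0.86, adjusted p = 0.00203) and Alox15 (0.83) lie 21524 bases apart on chromosome 11. The apolipoprotein genes Apoc1 (166 and 190.2 against 66.5 and 81.3 CPM, log2 difference 1.30, adjusted p = 1.26e-04) and Apoe (3971 and 3555 against 2626 and 2698, log2 difference 0.54, adjusted p = 0.00661) lie 3449 bases apart on chromosome 7. How often neighbours among all tested genes are called together was not tested.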
